A study of Mus musculus with 12 samples.

Results

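The genes described here make ribosomes. The list holds 50 mouse genes of ribosome biogenesis, chosen by name for their role, with earlier results of these data known, and 48 of them could be measured among 18193 genes on the array. Npm3 had no probe set, and Mrto4 had only a probe set annotated to several genes. Expression was measured on 12 Affymetrix arrays of NIH3T3 cells, an established mouse fibroblast line whose growth stops when the cells touch, in 6 groups of 2 arrays. The groups differed in the construct they expressed and in the density at harvest. Control cells, infected with a virus with the control vector, were taken at 30% confluency (sparse control) and at complete confluency (confluent control). Cells with Tead2-EnR, the transcription factor Tead2 joined to a repression domain, were taken at 30% of the confluency that these cells reach (sparse Tead2-EnR). Cells with Yap, a coactivator of Tead factors, and cells with Tead2-VP16, Tead2 joined to a viral activation domain, were taken while still proliferating, at a density slightly past that at which normal cells are confluent (dense Yap and dense Tead2-VP16). Tead2-VP16 cells were also taken at complete confluency (confluent Tead2-VP16). The labels give neither the promoter that drives the constructs nor whether the cells were pools or clones. Separate cultures for the 2 arrays of each group are not stated either, so a p-value here reflects only how far these arrays lie apart, which may be technical.

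Ribosomes are built in the nucleolus. RNA polymerase I transcribes the long precursor of ribosomal RNA, and small nucleolar ribonucleoproteins (snoRNPs) modify its nucleotides. Assembly factors fold and cut the precursor into the small and the large subunit. Growing cells spend much of their transcription and translation on this pathway, and resting fibroblasts lower it. Myc is a known activator of its genes, and binds the E-box CACGTG.

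Levels below are log2 of the deposited intensity, and each gene's level was compared between groups and not with that of another gene. Intensities of the same 48 genes had a median log2 level of 10.49 and 10.54 on the sparse control arrays. The median was 9.61 on both sparse Tead2-EnR arrays, 9.69 and 9.65 on dense Tead2-VP16, and 9.60 and 9.62 on dense Yap. It was 9.22 and 9.19 on confluent Tead2-VP16, and 9.11 and 9.13 on confluent control. The groups thus fell into 3 levels, with sparse control at the top, sparse Tead2-EnR and both dense groups in the middle, and both confluent groups at the bottom. Over all genes the median level lay between 6.75 and 6.89 on every array. A gene's SD within a group was 0.044 at the median, and the widest was 0.41 for Nop58 in dense Tead2-VP16.

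Single genes had the same order almost throughout. Sparse control had the highest group mean in 46 of 48 genes, the exceptions being Nop10 (highest in sparse Tead2-EnR) and Imp3 (highest in confluent Tead2-VP16). In the same 46 genes both sparse control arrays lay above all 10 other arrays, which held for 17.61% of all genes. The lowest mean was in confluent control in 40 genes, in confluent Tead2-VP16 in 7, and in dense Yap in 1, Polr1c. The complete order of the 3 levels held in 42 genes.

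**Figure D1:**
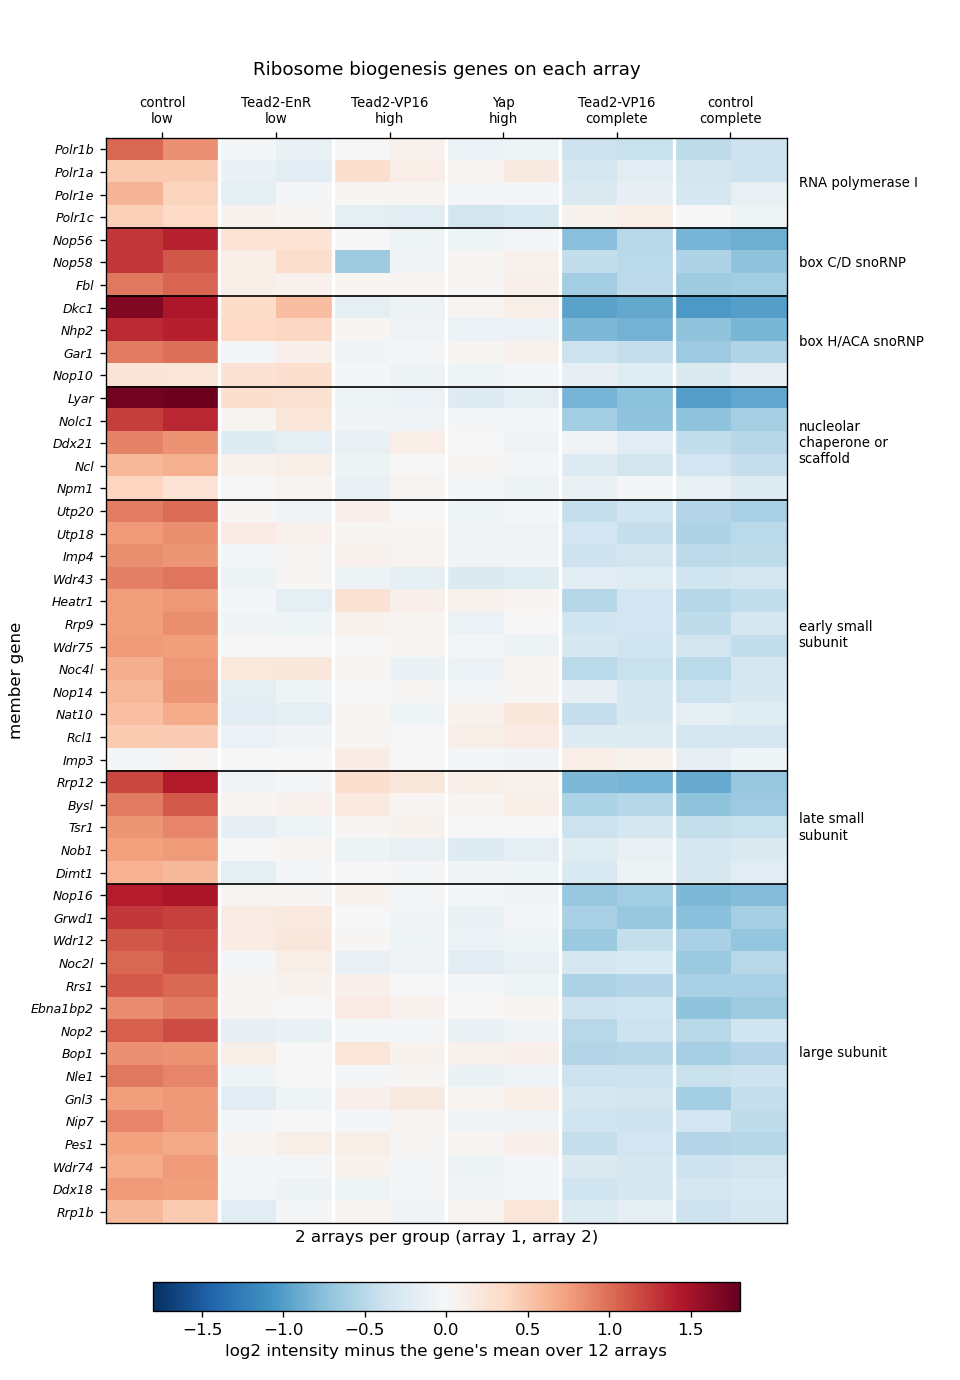
Heat map of the log2 level of the 48 ribosome biogenesis genes (rows, by role) on the 12 arrays (columns, by group), with each gene's mean over the arrays subtracted; the colour scale is in log2 units. The sparse control columns are highest in 46 genes, and the confluent columns are lowest in most.

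The array sample was a fibroblast one by its markers. All 8 fibroblast markers were above the level of the median gene (6.87). Of the markers of other cells, 2 of 6 for macrophages, 1 of 6 for epithelium, 0 of 6 for endothelium, 1 of 6 for muscle and 1 of 5 for adipocytes were above it. The summed adipocyte markers had a log2 level of 11.06 and 11.07 in sparse control and 12.74 and 12.68 in confluent control, through Lpl alone (11.01 to 13.04 over the arrays), and the summed fibroblast markers went from 16.12 and 16.15 to 16.82 and 16.80. The summed epithelial markers went from 8.34 and 8.47 to 9.01 and 9.02, and the macrophage ones from 9.06 and 9.01 to 8.69 and 8.76. For the transferrin receptor, whose control probe sets lie at both ends of its RNA, the 3′ end exceeded the 5′ end by a log2 value that rises as RNA is shortened. It was 0.98 ± 0.05 (SD, n = 2) in sparse control and 1.30 ± 0.19 (SD, n = 2) in confluent control. The part of these shifts in the results on density was not tested. No array stood apart, and arrays of a group correlated at 0.9976 to 0.9986 across genes.

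Density in control cells was the first comparison, and asks what contact does to the pathway. Of 48 genes, 47 were lower in confluent than in sparse control and none was higher, where 22.8% of all genes were called lower and 26.1% higher (limma, Benjamini-Hochberg adjusted p below 0.05, two-sided). All 48 genes lay above the level of the median gene, and genes above that level were called more often. In either direction 81.82% of those were called, against 48.91% of all genes. The remaining gene of the 48, Imp3, differed by -0.11 (adjusted p = 0.17). The median log2 difference was -1.28, against -0.01 over all genes, and 37 genes were at least 2-fold lower, against 5.19% of all genes. The arrays of the groups did not overlap in any of the 48 genes, and 35.1% of all genes were lower without overlap. The direction was shared by every class of the pathway, while the sizes ran from -2.71 for Lyar to -0.11 for Imp3.

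RNA polymerase I subunits had a median of -0.77 over 4 genes, the smallest of the class medians, and all 4 were called. Polr1b, which encodes the second largest subunit, had log2 levels of 9.15 and 8.94 in sparse control and of 7.66 and 7.75 in confluent control, a 2.54-fold lower level (adjusted p = 1.7e-07 by limma). Polr1a, the largest subunit, had levels of 8.67 on both sparse control arrays and of 7.87 and 7.84 on the confluent ones, which is 1.76-fold lower. Polr1c, a subunit that RNA polymerase III shares, had levels of 10.78 and 10.71 in sparse control and 10.34 and 10.27 in confluent control, which is 1.36-fold lower (adjusted p = 8e-05 by limma). The 95% intervals of Polr1a (-0.98 to -0.65) and Polr1c (-0.57 to -0.31) did not meet, and the measured difference was smaller for the shared subunit. Whether the 2 probe sets respond alike to a change in RNA was not tested. Polr1e, another subunit, was 1.65-fold lower.

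The snoRNP core proteins had the largest class medians. Box C/D snoRNPs carry the RNA 2′-O-methylation of the ribosomal RNA, and their 3 measured proteins had a median of -1.83. Nop56, a scaffold of the particle, had levels of 11.88 and 11.99 in sparse control and 9.78 and 9.73 in confluent control, which is 4.54-fold lower (adjusted p = 1.3e-08 by limma). Fbl, the methyltransferase, had levels of 11.88 and 11.97 against 10.28 and 10.30, and was 3.11-fold lower. Nop58, the partner of Nop56, had levels of 12.07 and 11.92 against 10.24 and 10.08, and was 3.55-fold lower. No array of the confluent control reached a sparse control array in any of them.

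Box H/ACA snoRNPs convert uridines to pseudouridine, and of their 4 core proteins Dkc1 and Nhp2 were among the genes with the largest differences. Dkc1, the pseudouridine synthase, which is also part of telomerase, had levels of 11.08 and 10.88 in sparse control and 8.39 and 8.42 in confluent control. This is 5.96-fold lower (log2 difference -2.58, SE 0.09, adjusted p = 7.3e-09 by limma). Nhp2 had levels of 12.23 and 12.28 against 10.16 and 10.07, and was 4.41-fold lower. Gar1 was 2.95-fold lower. Nop10, the smallest protein of the same particle, had levels of 12.05 and 12.03 against 11.56 and 11.67, and was only 1.34-fold lower (adjusted p = 1.3e-04 by limma). The measured differences within this 1 particle were unequal: the 95% intervals of Dkc1 (-2.77 to -2.38) and Nop10 (-0.56 to -0.30) did not meet. These intervals hold the spread between arrays only. Whether probe sets of different genes respond alike to a change in RNA was not tested.

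Nucleolar chaperones and scaffolds held the gene with the largest difference of the list. Lyar, a nucleolar protein of growing cells, had levels of 10.92 and 10.95 in sparse control and 8.19 and 8.25 in confluent control, which is 6.56-fold lower (SE of the log2 difference 0.05, adjusted p = 4.8e-10 by limma). Nolc1, which chaperones snoRNPs, was 3.91-fold lower, Ddx21, an RNA helicase, 2.51-fold and Ncl, nucleolin, 1.99-fold. Npm1, nucleophosmin, had levels of 13.61 and 13.47 against 13.09 and 12.99, and was 1.41-fold lower (adjusted p = 3e-04 by limma).

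Small subunit factors of the early processome, the large particle that forms on the growing precursor, had a median of -1.16 over 12 genes, of which 11 were called. Utp20 had levels of 9.77 and 9.85 in sparse control and 8.32 and 8.26 in confluent control, which is 2.88-fold lower. Nat10, the enzyme that acetylates cytidines of the 18S RNA, had levels of 9.07 and 9.19 against 8.35 and 8.31, and was 1.73-fold lower. Imp3, which with Imp4 joins the U3 snoRNA to the precursor, had levels of 10.03 and 10.07 against 9.91 and 9.98. Imp4, its partner, was 2.42-fold lower. Of the 5 factors of late small subunit maturation, all were called, with a median of -1.24. Rrp12, an export and maturation factor, had levels of 9.17 and 9.40 against 7.07 and 7.29, and was 4.31-fold lower. Dimt1, a methyltransferase of the 18S RNA, had levels of 8.61 and 8.56 against 7.69 and 7.78, and was 1.81-fold lower.

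All 15 large subunit factors were called lower, 14 of them by at least 2-fold, with a median of -1.38. Nop16 had levels of 10.11 and 10.16 in sparse control and 7.88 and 7.91 in confluent control, which is 4.72-fold lower (adjusted p = 8.7e-10 by limma). Grwd1 was 3.79-fold lower and Wdr12, a member of the PeBoW complex, 3.44-fold. The other members of that complex, Bop1 and Pes1, were 2.60-fold and 2.33-fold lower. Rrp1b had levels of 8.86 and 8.74 against 7.90 and 7.98, and was 1.82-fold lower, the smallest difference of the class.

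**Figure D2:**
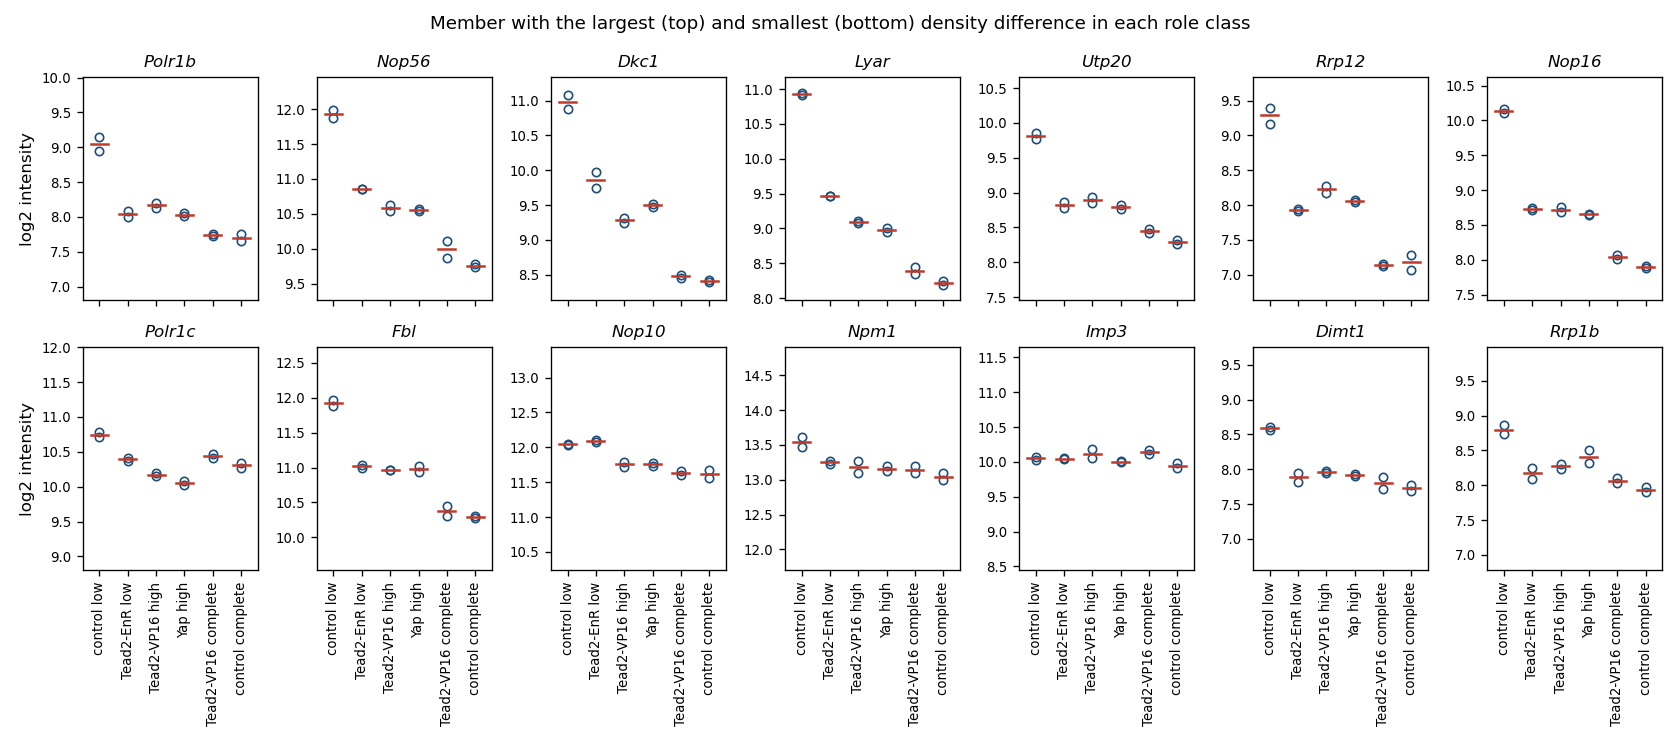
Log2 level on each of the 12 arrays (points, by group) for the gene with the largest and the gene with the smallest density difference of each role. Lyar, Dkc1, Nop16, Nop56, Rrp12, Utp20 and Polr1b have sparse control above every other group, while Imp3 stays between 9.91 and 10.18.

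Other probe sets of the same genes mostly gave the same direction. Of 50 further probe sets for 33 of the genes, 42 were called lower in confluent control, 6 were not called and 2 were called higher. Over all probe sets 45.51% were called in either direction. The 2 were dimmer probe sets of Ddx18 (log2 difference 0.62) and Pes1 (0.34), whose brighter probe sets were called lower (-1.05 and -1.22). For those genes the direction depends on the probe set. Some of the probe sets used, those of Polr1c, Fbl, Nop56, Nhp2, Gar1 and Tsr1 among them, are of the kind whose probes can match transcripts of more than 1 gene.

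The promoters were set against the motifs of Tead and Myc and of factors common at promoters, since the genes were lower together. The RefSeq mouse table (GRCm38.p6) held a window of 300 bases, 250 before the annotated start and 50 after it, for 45 of the 50 listed genes and for 14452 genes of the array, and both strands were searched. The E-box CACGTG, which reads the same on both strands, was in 9 of 45 windows (20%) and in 10.2% of all genes. The 9 windows below are shown because they place that motif, in capitals, in factors of the small and of the large subunit.

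Imp4, chr1:34439696-34439725, plus strand: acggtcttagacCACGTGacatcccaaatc
Nop2, chr6:125131811-125131840, plus strand: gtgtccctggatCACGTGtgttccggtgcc
Grwd1, chr7:45830740-45830769, minus strand: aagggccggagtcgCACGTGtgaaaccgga
Utp20, chr10:88826765-88826794, minus strand: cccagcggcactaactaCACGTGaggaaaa
Pes1, chr11:3963965-3963994, plus strand: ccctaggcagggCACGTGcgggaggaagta
Tsr1, chr11:74898092-74898121, plus strand: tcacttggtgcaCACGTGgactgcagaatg
Nle1, chr11:82908355-82908384, minus strand: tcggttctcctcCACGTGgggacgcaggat
Utp18, chr11:93885769-93885798, minus strand: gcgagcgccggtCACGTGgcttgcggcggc
Wdr43, chr17:71616220-71616249, plus strand: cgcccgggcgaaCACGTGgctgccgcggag

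The 9 genes had a median density difference of -1.30, and the 34 measured genes whose window lacked the motif had one of -1.20, and the gap was not tested. The Tead motif CATTCC was in 2 of 45 windows (4.4%), against 15.3% of all genes. The 2 genes were Lyar, with the largest density difference of the list, and Polr1b, and their windows are shown with the motif in capitals.

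Lyar, chr5:38220402-38220431, plus strand: ccgcctcggaacCATTCCgacaacgccccc
Polr1b, chr2:129101014-129101043, plus strand: ggttggtccggcCATTCCagccagccacga

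The other motifs searched were CCGGAAG, of the GABP kind, in 14 windows (31.1%, against 15% of all genes), GGGCGG, of the SP1 kind, in 31 (68.9%, against 57.3%), CCAAT in 16 (35.6%, against 42%) and AAGATGG, of the YY1 kind, in 3 (6.7%, against 7.5%). The windows had a median of 58% G and C, and those of all genes 58.7%. The genes with the largest and the smallest density difference are set against each other by the 250 bases before their starts, Lyar with the CATTCC motif and Imp3 with a pair of CCAAT motifs, 1 on each strand, in capitals.

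Lyar, chr5:38220232-38220481, plus strand: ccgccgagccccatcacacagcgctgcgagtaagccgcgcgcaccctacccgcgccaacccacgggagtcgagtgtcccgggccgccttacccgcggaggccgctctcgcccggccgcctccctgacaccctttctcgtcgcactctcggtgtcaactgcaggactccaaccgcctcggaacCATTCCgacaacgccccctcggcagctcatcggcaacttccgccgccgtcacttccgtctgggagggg
Imp3, chr9:56937250-56937499, plus strand: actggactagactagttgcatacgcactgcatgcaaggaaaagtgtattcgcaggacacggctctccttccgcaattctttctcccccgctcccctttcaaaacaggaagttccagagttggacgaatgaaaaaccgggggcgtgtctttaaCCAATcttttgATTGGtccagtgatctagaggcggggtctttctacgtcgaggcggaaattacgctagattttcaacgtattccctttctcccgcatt

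A match is a string of letters and not a measured binding site.

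Sparse cells with the Tead2 repressor were compared with sparse control cells, to ask what repression at Tead sites does at low density. Of 48 genes, 46 were lower in sparse Tead2-EnR and none was higher, where 18.1% of all genes were called lower and 20.3% higher (limma, Benjamini-Hochberg). The median log2 difference was -0.87, against -0.01 over all genes, and 12 genes were at least 2-fold lower, against 0.824% of all genes. Lyar had levels of 9.47 and 9.46 in sparse Tead2-EnR, 2.77-fold below sparse control (adjusted p = 6.9e-08 by limma). Nop16 had levels of 8.75 and 8.71, 2.65-fold lower, and Rrp12 levels of 7.91 and 7.95, 2.56-fold lower. Dkc1 had levels of 9.75 and 9.98, 2.17-fold lower, and Nop56 a level of 10.86 on both arrays, 2.11-fold lower. All of these lay between the levels of sparse and confluent control.

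The class medians were -0.62 for RNA polymerase I, -0.99 for box C/D and -0.97 for box H/ACA proteins, -1.05 for nucleolar chaperones, -0.80 and -0.95 for early and late small subunit factors, and -0.89 for large subunit factors. The 2 genes not called were Imp3 (10.04 and 10.05, difference -0.01, adjusted p = 0.94) and Nop10 (12.07 and 12.11, difference 0.05, adjusted p = 0.56). Npm1 had levels of 13.23 and 13.27, a difference of -0.29 (adjusted p = 0.013 by limma), which was no longer called without control low density array 1 (-0.22) or without Tead2-EnR array 1 (-0.27). The excess of the 3′ over the 5′ end of transferrin receptor RNA was 1.12 ± 0.02 (SD, n = 2) in sparse Tead2-EnR, against 0.98 in sparse control. The summed macrophage markers had log2 levels of 9.43 and 9.36, against 9.06 and 9.01 in sparse control, with Ptprc, which defines blood cells, at 3.08 to 3.74 on all arrays. The summed adipocyte markers were at 11.44 and 11.37, the fibroblast ones at 16.38 on both arrays, and the epithelial ones at 8.65 and 8.63, all above sparse control. The part of these shifts in the result was not tested.

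Against confluent control, sparse Tead2-EnR had 39 genes higher and none lower, where 16.7% of all genes were called higher and 18% lower, with a median of 0.42. The 4 genes at least 2-fold higher, against 2.26% of all genes, were Dkc1 (2.75-fold), Lyar (2.37-fold), Nhp2 (2.20-fold) and Nop56 (2.15-fold). The 9 genes not called included Nat10 (8.34 and 8.36 against 8.35 and 8.31, difference 0.01) and the RNA polymerase I subunits Polr1a (0.18), Polr1c (0.09) and Polr1e (0.12). Nop10 was 1.39-fold higher and Nop16 1.78-fold. The genes thus ranged from levels near confluent control to 2.75-fold above it. This comparison and the density comparison share the confluent control arrays.

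Dense Yap and dense Tead2-VP16 cells were each compared with confluent control, to ask what these drivers of Tead targets do where control cells have stopped growing. The density of these groups also differs from complete confluency, so vector and density cannot be told apart. In dense Yap, 40 of 48 genes were higher, where 11.7% of all genes were, and 1 was lower, Polr1c, where 14.5% of all genes were. The median log2 difference was 0.44, against -0.0026 over all genes. In dense Tead2-VP16, 41 genes were higher, where 13.2% of all genes were, and none was lower, where 13.7% were, with a median of 0.47. All 15 large subunit factors were called higher in each, by the brightest probe set of each gene. Of the 50 further probe sets of the list, 29 were called higher in dense Yap, 1 lower, and 20 were not called. For dense Tead2-VP16, 26 were called higher, 1 lower, and 23 were not called. Over all probe sets 21.92% were called in either direction for dense Yap and 23.25% for dense Tead2-VP16. The 2 comparisons share the confluent control arrays.

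Dkc1 had levels of 9.47 and 9.52 in dense Yap, 2.13-fold above confluent control (adjusted p = 2.3e-05 by limma), and of 9.25 and 9.32 in dense Tead2-VP16, 1.84-fold above it. Rrp12 had levels of 8.07 and 8.05 in dense Yap, 1.84-fold above it, and of 8.28 and 8.17 in dense Tead2-VP16, 2.07-fold above it (adjusted p = 3.1e-05 by limma). Lyar had levels of 8.95 and 9.01 in dense Yap and of 9.10 and 9.08 in dense Tead2-VP16, 1.69-fold and 1.83-fold above confluent control. In each comparison 1 gene was at least 2-fold higher, Dkc1 with Yap, where 0.511% of all genes were, and Rrp12 with Tead2-VP16, where 0.544% were. Nop56 was 1.75-fold and 1.78-fold higher, and Nop16 1.69-fold and 1.77-fold.

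RNA polymerase I was the class with the smallest difference, with medians of 0.27 in dense Yap and 0.36 in dense Tead2-VP16. Polr1a had levels of 8.26 and 8.37 in dense Yap and of 8.49 and 8.33 in dense Tead2-VP16, 1.37-fold and 1.47-fold above confluent control. Polr1b had levels of 8.02 and 8.05, and 8.13 and 8.20, 1.26-fold and 1.38-fold above it, and the dense Yap call was lost without dense Yap array 2 (0.32) or confluent control array 1 (0.29). Polr1c had levels of 10.02 and 10.08 in dense Yap, which is 1.19-fold below confluent control (adjusted p = 0.0083 by limma). This call was lost without dense Yap array 1 (-0.22) and without confluent control array 1 (-0.21), and the other probe set of Polr1c differed by -0.14 and was not called (adjusted p = 0.19 over all probe sets). In dense Tead2-VP16, Polr1c had levels of 10.19 and 10.16, a difference of -0.13 that was not called.

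The 7 genes not called in dense Yap were Polr1e, Nop10, Npm1, Imp3, Wdr43, Nob1 and Dimt1, with differences between 0.06 and 0.20. Those not called in dense Tead2-VP16 were Polr1c, Polr1e, Nop58, Nop10, Npm1, Imp3 and Nat10. Nop58 is the gene of the widest spread there, with levels of 10.16 and 10.74 on the 2 arrays, and it had levels of 10.82 and 10.88 in dense Yap.

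Against sparse control, both dense groups were lower in 47 of 48 genes and higher in none. Of all genes, 20.2% were called lower and 22.2% higher in dense Yap, and 19.5% lower and 23.4% higher in dense Tead2-VP16. The medians were -0.87 and -0.80, and 16 and 15 genes were at least 2-fold lower, against 3.2% and 3.34% of all genes. Lyar was 3.87-fold and 3.59-fold lower and Nop58 2.21-fold and 2.92-fold. Imp3 was the gene not called in each, with differences of -0.04 and 0.07. Proliferating cells past normal confluency thus had less of most of these messenger RNAs than sparse control cells, and more than confluent ones, and vector and density cannot be told apart here too. The 3′ excess of transferrin receptor RNA was 1.31 in dense Yap and 1.23 in dense Tead2-VP16, against 0.98 in sparse control. The summed adipocyte markers had log2 levels of 11.59 and 11.53 in dense Yap and 11.72 and 11.71 in dense Tead2-VP16, and the summed fibroblast markers lay between 16.58 and 16.60 in both, all above sparse control. The summed epithelial markers lay between 8.68 and 8.87 there, against 8.34 and 8.47 in sparse control. The part of these shifts in the results was not tested.

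**Figure D3:**
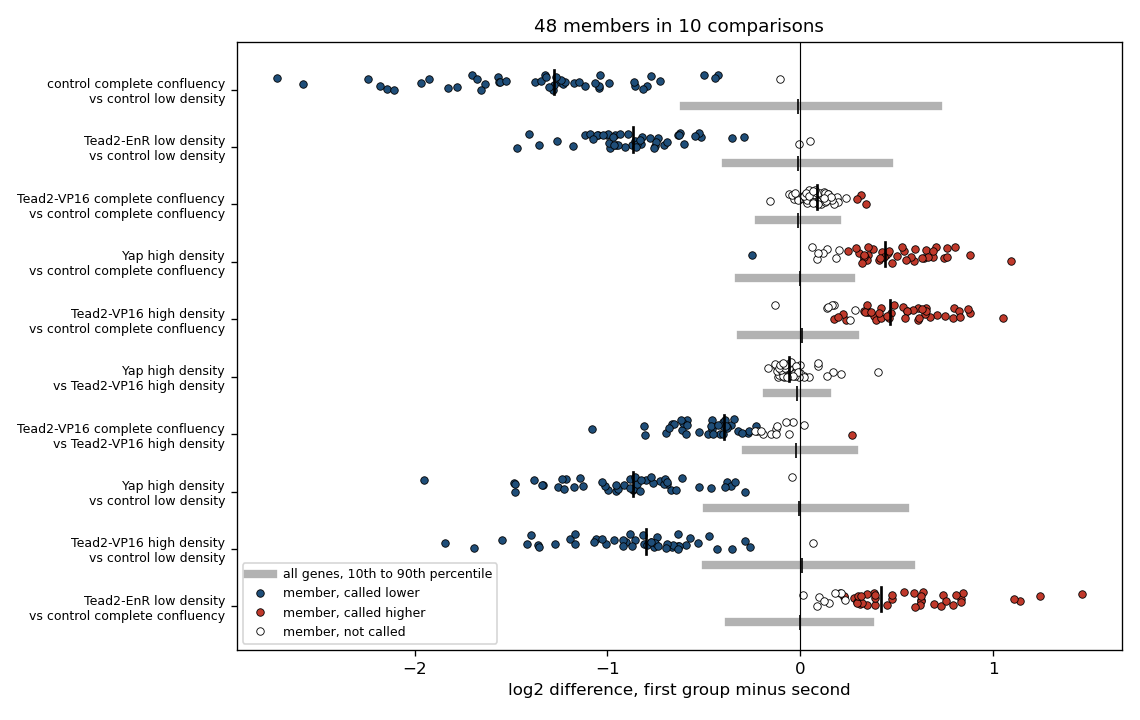
Log2 difference, first group minus second, of the 48 genes (points) in each of the 10 comparisons, with the median of the genes as a black line and the 10th to 90th percentile of all genes as a band. The medians and most points lie below the band in comparisons with sparse control (medians -1.28 to -0.80), with Imp3 inside it, and the medians are near 0 for Yap against Tead2-VP16 and at complete confluency.

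Dense Yap and dense Tead2-VP16 did not differ in any of the 48 genes at an adjusted p below 0.05 in limma, where 2.02% of all genes did. An unadjusted p below 0.05 was found for 4 of the 48, and for 2554 of all 18193 genes. The median difference, Yap minus Tead2-VP16, was -0.06, and the genes ranged from -0.17 for Rrp12 to 0.40 for Nop58. The 95% interval was 0.01 to 0.41 for Dkc1, the gene with the second highest difference, and -0.37 to 0.03 for Rrp12. Without dense Tead2-VP16 array 2, 1 gene was called.

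Tead2-VP16 cells also had a density step of their own, from dense to complete confluency. Of 48 genes, 35 were lower at complete confluency, where 12.4% of all genes were, and 1 was higher, where 12.1% were. The median was -0.40. Rrp12 had levels of 7.16 and 7.13 at complete confluency against 8.28 and 8.17 before it, 2.11-fold lower (adjusted p = 4.9e-05 by limma), and Nhp2 had levels of 10.08 and 10.03 against 10.91 and 10.82, 1.75-fold lower. Dkc1 was also 1.75-fold lower and Lyar 1.62-fold. The gene called higher was Polr1c, with levels of 10.41 and 10.47 against 10.19 and 10.16 (difference 0.27, adjusted p = 0.0073 by limma), and its other probe set differed by 0.12 and was not called. Among the 12 genes not called were Imp3, Nop10, Npm1, Nop58, Ddx21 and Noc2l. The density step of control cells runs from another density and its difference from this step was not tested.

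At complete confluency, Tead2-VP16 cells were close to control cells. Only 3 of 48 genes were called, all higher, where 5.06% of all genes were called higher and 4.92% lower. An unadjusted p below 0.05 in limma was found for 14 of the 48, and for 4317 of all 18193 genes. The median difference was 0.09, and the genes ranged from -0.16 for Nat10 to 0.34 for Ddx21. The difference was above 0 in 41 of 48 genes, and in 8394 of all 18193 genes. Arrays were higher without overlap in 29 of the 48 and lower in 1, against 4332 and 5208 of all genes. Ddx21 had levels of 9.89 and 9.74 against 9.51 and 9.43 (adjusted p = 0.038 by limma), and was called in none of the 4 fits that leave out an array of these groups. Ebna1bp2, a large subunit factor, had levels of 10.27 and 10.29 against 9.92 and 10.01, 1.24-fold higher (adjusted p = 0.0074 by limma), but the mean of its probe sets differed by 0.04. Noc2l, another large subunit factor, named after its values were seen, had levels of 8.23 and 8.25 against 7.86 and 8.03, 1.22-fold higher (adjusted p = 0.038 by limma). A share of calls near the background is no result about the pathway, and the 3 calls did not hold in every setting. Without confluent control array 1 there were 0 calls, and without confluent Tead2-VP16 array 2 there was 1. Tests on all probe sets gave 1 (7.137% of all probe sets were called), genes above the median level 11 (29.46% of those genes), and these arrays alone 0. The genes with the largest density differences were near confluent control: Dkc1 had levels of 8.46 and 8.50 against 8.39 and 8.42, and Lyar 8.34 and 8.44 against 8.19 and 8.25.

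Imp3 stood apart across the groups. Its levels lay between 9.91 and 10.18 on the 12 arrays, and it was called in none of the 10 comparisons. Nop10 had its highest levels in sparse control and sparse Tead2-EnR (12.03 to 12.11), and was 1.22-fold lower in each dense group than in sparse control. Npm1 was highest in sparse control (13.61 and 13.47) and between 12.99 and 13.27 elsewhere.

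Other genes of the pathway were counted on a list of 123 further genes, 119 of them measured. In confluent against sparse control 103 were lower, where 22.8% of all genes were, and 2 higher, where 26.1% were, with a median of -0.82. The lowest were Exosc8, an exosome subunit (-1.92), Wdr18, a large subunit factor (-1.66), and Ruvbl2, an ATPase of snoRNP assembly (-1.65). The highest were Nop53 (0.21), which was called higher, Shq1 (0.18), also called, and Sbds (0.12), which was not called. By group, 10 of 14 polymerase I genes, 12 of 14 exosome and nuclease genes, 38 of 44 large subunit factors, 36 of 39 small subunit factors and 7 of 8 snoRNP assembly genes were lower, and the medians lay between -1.04 and -0.44. In sparse Tead2-EnR against sparse control 98 were lower (18.1% of all genes) and 1 higher (20.3%), with a median of -0.55. In dense Yap against confluent control 60 were higher (11.7% of all genes) and 2 lower (14.5%), with a median of 0.21. In dense Tead2-VP16 against confluent control 71 were higher (13.2% of all genes) and none lower (13.7%), with a median of 0.24. In confluent Tead2-VP16 against confluent control 10 were higher (5.06% of all genes) and 2 lower (4.92%), with a median of 0.06, which is near the background. In each of these comparisons the median lay on the same side of 0 as that of the 48 genes, and nearer to it.

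The 44 measured genes of the cytosolic ribosomal proteins, the finished parts that these factors assemble, had medians near 0. In confluent against sparse control 10 were called lower, a share near the 22.8% of all genes, and 3 higher, where 26.1% of all genes were, with a median of -0.01, and the median level lay between 13.92 and 13.98 on all arrays. In sparse Tead2-EnR against sparse control 2 were higher (20.3% of all genes) and 4 lower (18.1%). In dense Yap against confluent control 1 was higher (11.7% of all genes) and 1 lower (14.5%). Single genes ran from -1.39 (Rps25) to 0.36 (Rpl39) in confluent against sparse control. The median of their mean levels, 13.94, is near the top of the scale, though the lowest was 3.38. Whether a level near the top narrows the differences was not tested.

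**Figure D4:**
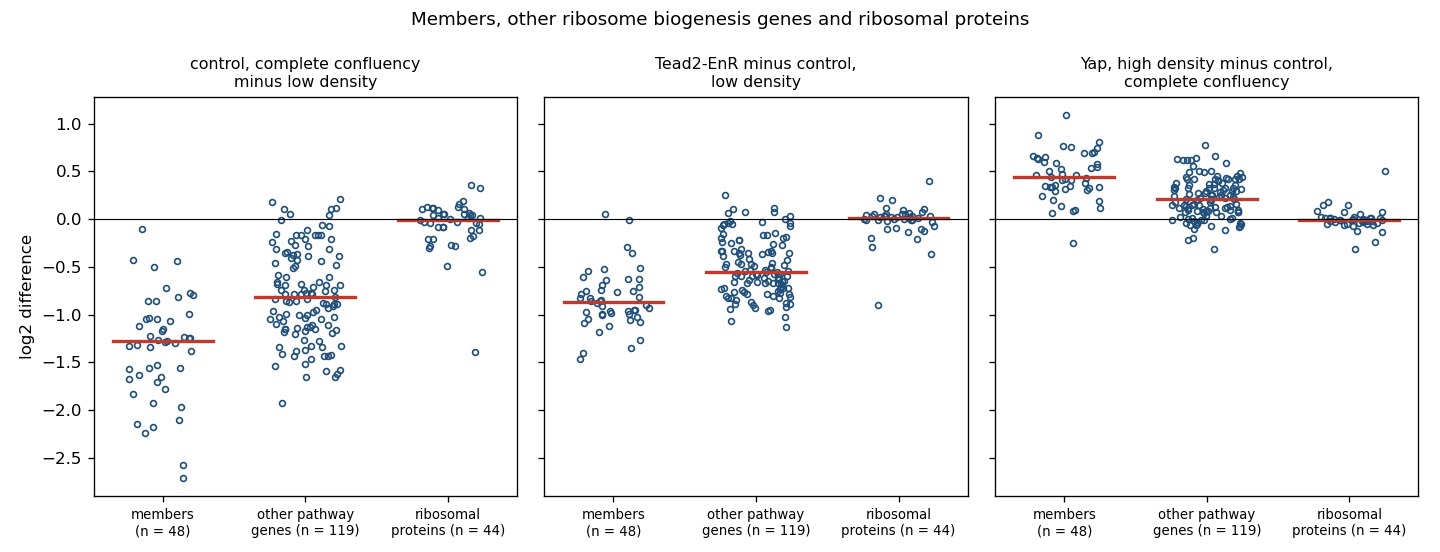
Log2 difference of the 48 ribosome biogenesis genes, the 119 other pathway genes and the 44 ribosomal protein genes in 3 comparisons, 1 point for each gene, with the median of each list as a red bar. The ribosomal protein medians are near 0, while the medians of both pathway lists are below 0 in the density and Tead2-EnR comparisons and above 0 in dense Yap against confluent control, with single genes on the other side.

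Myc had log2 levels of 10.66 and 10.74 in sparse control and of 9.59 and 9.68 in confluent control, a difference of -1.06 (adjusted p = 8.5e-07 by limma). It had levels of 9.69 and 9.54 in sparse Tead2-EnR, a difference of -1.08 from sparse control. In the dense groups it had levels of 9.87 and 9.85 with Tead2-VP16 and 9.81 and 9.89 with Yap, where the differences from confluent control, 0.22 and 0.21, were not called. It was higher in confluent Tead2-VP16 (10.02 and 10.15, difference 0.44, adjusted p = 0.0048 by limma). Myc in sparse Tead2-EnR differed from confluent control by -0.02 with overlapping arrays (not called, adjusted p = 0.84 by limma). Mycn, of the same family, had the highest difference of all genes in sparse Tead2-EnR against sparse control (5.18). It also had the highest in dense Tead2-VP16 against sparse control (4.92). Against confluent control the highest difference of any gene in dense Tead2-VP16 was 2.88 (Prkg2). Mycn was thus also lower in sparse than in confluent control, and its high differences are not particular to the Tead2 fusions. How Myc or Mycn relates to the levels of the 48 genes was not tested. Confluent Tead2-VP16 exceeded dense Tead2-VP16 in Myc by 0.22, which was not called (adjusted p = 0.051 by limma), so the order of those groups is not settled.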

How the data were processed

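The arrays were 12, of 2 per group. The deposited values are intensities on a linear scale (3.77 to 25980), made by the authors with RMA, per the submitters' processing notes, which name no version. The intensities were turned to log2 with no pseudocount, and no filter on level was applied. Median intensity lay between 51.9 and 53.7. The number of arrays limits precision, and no detection calls were used. Of 45101 probe sets, 34945 had exactly 1 gene symbol. The brightest of a gene's probe sets by mean log2 stood for it, which left 18193 genes. All arrays were fitted with 1 mean per group by limma 3.58.1 in R 4.3.3 (6 residual and 3.45 prior degrees of freedom), p-values were two-sided and adjusted by Benjamini-Hochberg over all genes, and calls needed an adjusted p below 0.05. On simulated data for the density comparison over 18193 genes, 62% of changes of 0.5 log2 and 98% of changes of 1 were called. Genes named with array values were the largest and smallest in each role for density, and the 2 highest and 2 lowest in each other comparison, 20 genes in all, and the 3 highest and lowest of the other pathway genes. The members and lists were chosen with earlier results of these data known. Same-numbered arrays were checked for pairing and were not paired. Alternatives are in the closing section. Promoters were from RefSeq; those of Fbl, Npm1, Rrp12, Bop1 and Rrs1 were not used here. Figures were drawn with matplotlib 3.10.9.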

Additional observations from a re-analysis of the deposited data

How the results depend on the processing

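Of the counts, medians and order of groups under alternative settings, 252 values stayed on their side of the threshold and near the reported value, 20 medians moved, 5 counts rose, 4 fell and none reversed. Of the differences of single genes, 1847 kept their call, 48 gained it, 29 lost it and none reversed. Averaging the probe sets of a gene gave medians of -1.155 for density, -0.8101 for Tead2-EnR against sparse control, 0.3441 for Tead2-EnR against confluent control, 0.3739 and 0.3827 for dense Yap and dense Tead2-VP16 against confluent control, -0.81 and -0.7671 for these against sparse control, and -0.318 for the Tead2-VP16 density step. Repeating quantile normalization gave -1.219, -0.8203, -0.7847 and -0.7364 for density, Tead2-EnR, dense Yap and dense Tead2-VP16 against sparse control. Centring arrays on their medians gave -1.319 for density, 0.1294 for confluent Tead2-VP16, -0.9058 for dense Yap against sparse control and 0.4522 for Tead2-EnR against confluent control. The cause of these shifts was not tested. Among genes above the median level, where all 48 lie, 69.95% were called in either direction for Tead2-EnR against sparse control, and 66.79% against confluent control. For dense Yap and dense Tead2-VP16 the shares were 55.83% and 56.63% against confluent control, and 76.21% and 76.99% against sparse control. For the Tead2-VP16 density step the share was 54.05%.

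The count of 3 calls in confluent Tead2-VP16, where 9.976% of all genes were called, became 1 with every probe set tested (7.137% of all probe sets). It was 11 among genes above the median level (29.46% of those genes) and 8 with a variance trend and robust prior (15.36% of all genes). It was 6 after centring, 6 with a pseudocount of 16, and 0 with the arrays of the comparison alone. Medians were 0.0728 to 0.1087 when an array was left out. Leaving out an array gave 47 to 47 calls and medians of -1.289 to -1.273 for density, 45 to 46 and -0.9043 to -0.8556 for Tead2-EnR, 36 to 40 and 0.4071 to 0.4469 for dense Yap, 34 to 38 and 0.4341 to 0.5043 for dense Tead2-VP16, 36 to 38 and 0.4395 to 0.4576 for Tead2-EnR against confluent control, 34 to 35 and -0.4046 to -0.3843 for the Tead2-VP16 step, and 0 to 1 and -0.0749 to -0.0372 for Yap against Tead2-VP16. Against sparse control it gave 47 to 47 and -0.8811 to -0.8526 for dense Yap, and 46 to 47 and -0.82 to -0.7854 for dense Tead2-VP16. Sparse control stayed highest in 46 to 46 genes. With a lone array its spread is taken from the other groups.

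The same replicate number did not pair the arrays: of 15 pairs of groups, 1 correlated over 0.1, with a range of -0.0612 to 0.101. With the replicate block, 47 genes were called for density, 46 for Tead2-EnR and 2 for confluent Tead2-VP16.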
